A study of Mus musculus with 6 samples.

Results

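Transcripts of 7 genes of neurotrophin signalling, the ligands Bdnf and Ntf3, the receptors Ngfr, Ntrk2, Ntrk3 and Sort1, and the neuropeptide precursor Vgf, were followed in hippocampi of Tg2576 mice, a model of Alzheimer's disease. The members were all probe sets of the Affymetrix MG430 2.0 array whose only gene symbol in the annotation was one of these. They came to 25 of 45101 probe sets and stood for 6 of the 7 genes, because Ntf3 was not analysed here. Ntrk2 and Ntrk3 had 8 probe sets each, Ngfr and Sort1 3 each, Bdnf 2 and Vgf 1. The 3 groups were 12 month-old mice without treatment (Tg-12mo), 18 month-old mice without treatment (Tg-18mo), and 18 month-old mice treated with the angiotensin-converting enzyme (ACE) inhibitor captopril at 20 mg/kg/day in their drinking water for 6 months (Tg-18mo-ACEI). All were male Tg2576 mice of the strain labelled C57BL/6 (C57BL/6J in the study's methods) that carried human APP695 with the Swedish mutation, driven by the prion protein promoter. No group without the transgene was analysed here, and treatment had begun at 12 months of age. Each group had 2 chips, and each chip carried the pooled hippocampal RNA of 4 mice, so differences between single mice could not be seen.

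Neurotrophins are secreted growth factors that keep neurons alive and adjust their synapses. Brain-derived neurotrophic factor (Bdnf) binds the receptor tyrosine kinase TrkB, which is encoded by Ntrk2, and neurotrophin-3 (Ntf3) binds mainly TrkC, encoded by Ntrk3, whereas all neurotrophins also bind p75, encoded by Ngfr, and their uncleaved precursors bind p75 together with sortilin, encoded by Sort1. In the hippocampus, BDNF and TrkB are known for their part in long-term potentiation and memory, and Vgf is induced by neurotrophins.

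The values were linear signal intensities that the authors had scaled to a common target value of 600, and a difference is given as the log2 difference between group means of log2 signals with its standard error (SE). Tests were run on probe sets with a group mean of 100 or more in any group, and a probe set was called higher or lower at a Benjamini-Hochberg adjusted p under 0.05 in limma, adjusted over all 23262 probe sets tested. Of the 25 member probe sets, 20 were tested. The p-values rest in part on the spread between the 2 pools of each group, which may be technical. In limma this spread was taken over the 3 groups and drawn toward that of other probe sets of similar signal. Over the log2 signals of the 23262 probe sets tested the correlation was 0.987 to 0.992 between chips within a group and 0.958 to 0.965 across groups. The Tg-18mo chips stood apart in 18S ribosomal RNA, with control signals of 10219 and 11144 against 2000 to 2214 on the other 4 chips. The Tg-18mo-ACEI chips stood apart in the 3' to 5' signal ratio of β-actin, a sign of RNA integrity, with 1.45 and 1.38 against 1.77 to 1.98 elsewhere. Both moved with the groups compared, and their part in the results was not tested. Markers of hippocampal pyramidal and granule neurons were present, with summed signals of 40533 to 44519 on the 6 chips. Of these 9 markers, 2 were higher and 3 lower with captopril. Prox1 rose from a mean of 150 to 445 and Neurod6 from 4304 to 5866. Dsp fell from 1773 to 1426, Rgs14 from 3400 to 2790 and Pcp4 from 10255 to 8661. In Tg-18mo against Tg-12mo 3 were higher and 3 lower (5 and 1 after quantile normalization). As deposited, C1ql2 (1575 against 730), Dsp and Rgs14 were higher, and Neurod6, Calb1 and Pcp4 lower. In whole tissue, fewer cells of a type and less RNA per cell cannot be told apart.

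The promoters of Bdnf, Ngfr and Ntrk2 are shown because these genes had higher signals in 18 month-old than in 12 month-old untreated mice and their start regions were held in the RefSeq table used here (GRCm38.p6). Each window runs from 250 bases before to 50 bases after an annotated start, 5' to 3' on the gene's strand. Bdnf had 7 such windows, Ntrk2 1 and Ngfr 1. Ntf3 had 2. Capitals mark TGACG, the core of the binding site of CREB, a transcription factor that acts downstream of TrkB, and GGGCGG, the GC box bound by Sp1, on either strand. The third Bdnf window lies at chr2:109692186-109692485 on the plus strand, the Ntrk2 window at chr13:58806319-58806618 on the plus strand, and the Ngfr window at chr11:95587649-95587948 on the minus strand.
Bdnf, the third window: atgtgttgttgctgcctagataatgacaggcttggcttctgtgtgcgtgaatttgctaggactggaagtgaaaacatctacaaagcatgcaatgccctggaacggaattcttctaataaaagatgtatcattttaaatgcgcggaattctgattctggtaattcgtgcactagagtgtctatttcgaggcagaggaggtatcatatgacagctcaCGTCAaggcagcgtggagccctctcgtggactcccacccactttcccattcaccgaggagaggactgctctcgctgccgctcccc
Ntrk2: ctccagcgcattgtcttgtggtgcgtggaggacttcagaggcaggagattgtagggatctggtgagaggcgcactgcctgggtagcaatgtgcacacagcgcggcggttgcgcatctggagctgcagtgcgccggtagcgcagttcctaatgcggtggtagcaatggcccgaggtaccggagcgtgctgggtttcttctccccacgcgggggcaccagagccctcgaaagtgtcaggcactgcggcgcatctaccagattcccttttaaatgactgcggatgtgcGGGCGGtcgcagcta
Ngfr: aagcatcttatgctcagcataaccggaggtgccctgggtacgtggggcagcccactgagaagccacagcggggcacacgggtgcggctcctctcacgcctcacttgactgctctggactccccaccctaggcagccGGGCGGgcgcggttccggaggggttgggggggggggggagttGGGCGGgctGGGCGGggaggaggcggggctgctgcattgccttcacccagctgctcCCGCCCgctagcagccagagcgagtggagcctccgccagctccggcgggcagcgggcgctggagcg

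TGACG was found in 1 of the 7 Bdnf windows, the third, where it starts 35 bases before the annotated start and reads CGTCA on the strand printed. It was found in none of the Ntrk2, Ngfr or Ntf3 windows, whereas 20.8% of 32851 windows of the same length held it. The full palindrome TGACGTCA occurred in 1.79% of all windows and in no window of these genes. GGGCGG occurred 4 times in the Ngfr window, 1 time in that of Ntrk2 and in 2 of the 7 Bdnf and both Ntf3 windows, and it was present in 35.7% of all windows. TATAAA, the TATA box, occurred in none of these windows and in 13.6% of all. The Ngfr window was the richest of the 3 in G and C, with 71.7% against 61.3% for Ntrk2 and 48.7% for the third window of Bdnf. These matches describe the sequence and say nothing about binding in these mice.

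Bdnf lies at chr2:109674700-109727043 (GRCm38.p6), and both of its probe sets, which are annotated to the same transcript, were tested. On 1422168_a_at Bdnf gave signals of 743 and 718 at 12 months, 857 and 861 at 18 months, and 1042 and 1052 with captopril. The 3 groups did not overlap, and Bdnf mRNA was highest with captopril and lowest at 12 months on this probe set. The difference with captopril was 0.29 ± 0.065 (SE; 1.22-fold; limma adjusted p = 0.011), and that of Tg-18mo against Tg-12mo was 0.23 ± 0.065 (1.18-fold, limma adjusted p = 0.017). Without Tg-18mo replicate 1, Tg-18mo replicate 2 or Tg-18mo-ACEI replicate 2 the captopril difference no longer passed (limma adjusted p = 0.057, 0.059 and 0.065). The age difference did not pass without Tg-18mo replicate 1, Tg-18mo replicate 2 or Tg-12mo replicate 2 (limma adjusted p = 0.072, 0.08 and 0.055), and it was 0.13 after quantile normalization (limma adjusted p = 0.15).

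On 1422169_a_at, the other Bdnf probe set, the signals were 490 and 454 at 12 months, 692 and 656 at 18 months, and 706 and 676 with captopril. Both 18 month-old groups lay above the 12 month-old group, and the chips of treated and untreated mice overlapped. The difference between Tg-18mo and Tg-12mo was 0.51 ± 0.083 (1.43-fold, limma adjusted p = 0.0013). With captopril it was 0.04, with a 95% interval of -0.15 to 0.23 (limma adjusted p = 0.77). Thus the probe sets shared the difference with age, and the captopril difference passed on 1 of them. Against Tg-12mo, captopril-treated mice had higher Bdnf signals on both, by 0.52 and 0.55 (limma adjusted p = 0.00042 and 0.0011).

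**Figure D1:**
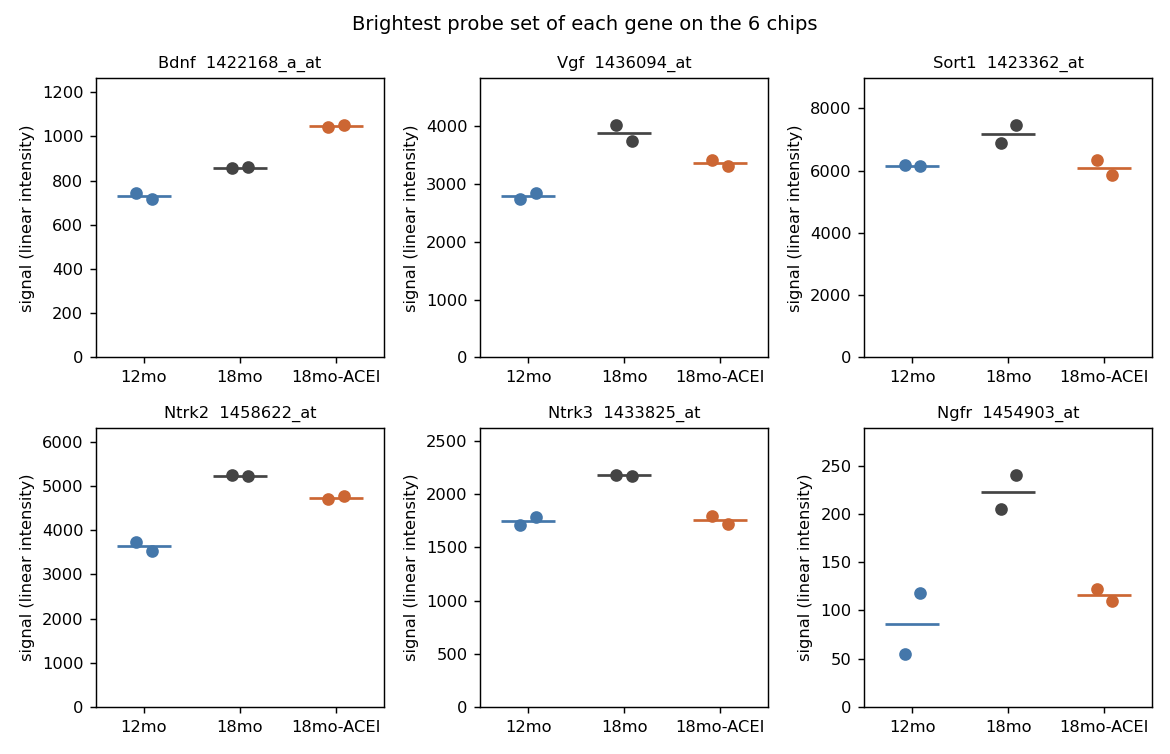
Signal (linear intensity, y axis from 0) of the probe set with the highest mean signal of each of 6 genes on the 6 chips, with 1 point per chip and a line at the mean of 2 chips per group (12mo, 18mo and 18mo-ACEI stand for Tg-12mo, Tg-18mo and Tg-18mo-ACEI). Bdnf rises from 730 to 859 and 1047 in this order, whereas Vgf, Sort1, Ntrk2, Ntrk3 and Ngfr have their highest mean in Tg-18mo.

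Ntrk2 lies at chr13:58806472-59133970 (GRCm38.p6). It encodes full-length TrkB, which signals in neurons, and truncated forms without the kinase, which astrocytes also carry. Of its 8 probe sets 6 were tested, and which isoform each one reads was not determined. The 6 did not move together. With captopril, 15.9% of all probe sets tested were called higher and 17.7% lower. Of the 6, 3 were lower (1458622_at, 1435196_at and 1420838_at), 2 were higher (1435305_at and 1420837_at), and 1437560_at did not pass. Between 12 and 18 months, 4 were higher in the older mice and none was lower in limma, also at an unadjusted p under 0.05. Over all probe sets tested, 25.9% and 21.5% were called higher and lower. The other 2 lay lower in the older mice without overlap of chips and did not pass. These were 1420837_at (-0.73, 95% interval -1.47 to 0.0005) and 1435305_at (-0.15, 95% interval -0.33 to 0.018).

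The probe set with the highest mean, 1458622_at, had signals of 3735 and 3530 at 12 months, 5259 and 5217 at 18 months, and 4697 and 4768 with captopril. All Tg-18mo chips lay above all Tg-18mo-ACEI chips, which lay above all Tg-12mo chips. The age difference was 0.53 ± 0.047 (1.44-fold, limma adjusted p = 6.2e-05). That with captopril was -0.15 ± 0.047 (limma adjusted p = 0.044). This small difference was lost in 8 alternatives, with adjusted p from 0.075 to 0.15, among them leaving out any single chip of either 18 month-old group, the replicate block (limma adjusted p = 0.075) and division of each chip by its median (0.15).

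On 1420838_at the signals were 3362 and 3552 at 12 months, 4337 and 4611 at 18 months, and 3411 and 3289 with captopril. Here captopril-treated mice overlapped with 12 month-old mice, and both lay below untreated 18 month-old mice. The captopril difference was -0.42 ± 0.054 (1.34-fold lower, limma adjusted p = 0.00073) and the age difference 0.37 ± 0.054 (limma adjusted p = 0.0007). Both passed without each chip in turn. On 1435196_at the signals were 3937 and 3847, 4325 and 4355, and 3826 and 3760 in the same order of groups. Its captopril difference of -0.19 ± 0.044 (limma adjusted p = 0.011) was lost without Tg-18mo replicate 1, Tg-18mo replicate 2 or Tg-18mo-ACEI replicate 2. Its age difference of 0.16 (limma adjusted p = 0.019) was lost without Tg-18mo replicate 1, Tg-18mo replicate 2 or Tg-12mo replicate 2. The age call was also lost after division of each chip by its median (limma adjusted p = 0.06). Without the intensity trend both were lost (limma adjusted p = 0.064 and 0.079).

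The remaining tested Ntrk2 probe sets showed another order. On 1420837_at, which is annotated to the same transcript as 1420838_at, the signals were 49.0 and 60.2 at 12 months, 38.1 and 27.98 at 18 months, and 164 and 155 with captopril. It passed the filter only through the captopril group, in which it is high. Its selection and its difference are thus linked, and the difference is a description. That log2 difference was 2.29, and 1.56 when 32 was added to each signal, against untreated signals far under 100. On 1435305_at the signals were 2748 and 3225 at 12 months, 2683 and 2668 at 18 months, and 3527 and 3308 with captopril. The captopril difference was 0.35 ± 0.075 (1.28-fold, limma adjusted p = 0.0083), and it did not pass without Tg-18mo-ACEI replicate 1 (0.057). On 1437560_at the signals were 2112 and 2377, 2790 and 2974, and 3056 and 2877 in the same order of groups. Both 18 month-old groups lay above the 12 month-old group on this probe set, by 0.36 in Tg-18mo (limma adjusted p = 0.003) and 0.40 with captopril (limma adjusted p = 0.0021). The untested probe sets 1446712_at and 1444121_at had signals of 4.8 to 60.3.

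Astrocyte markers, which stand for cells that carry truncated TrkB, were mixed with captopril. Of 6 tested, 3 were higher and 2 lower, and their summed signal was 41833 to 41875 with captopril, 37895 to 38571 in untreated 18 month-old mice and 41022 to 42248 at 12 months. Their part in the Ntrk2 differences was not tested.

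**Figure D2:**
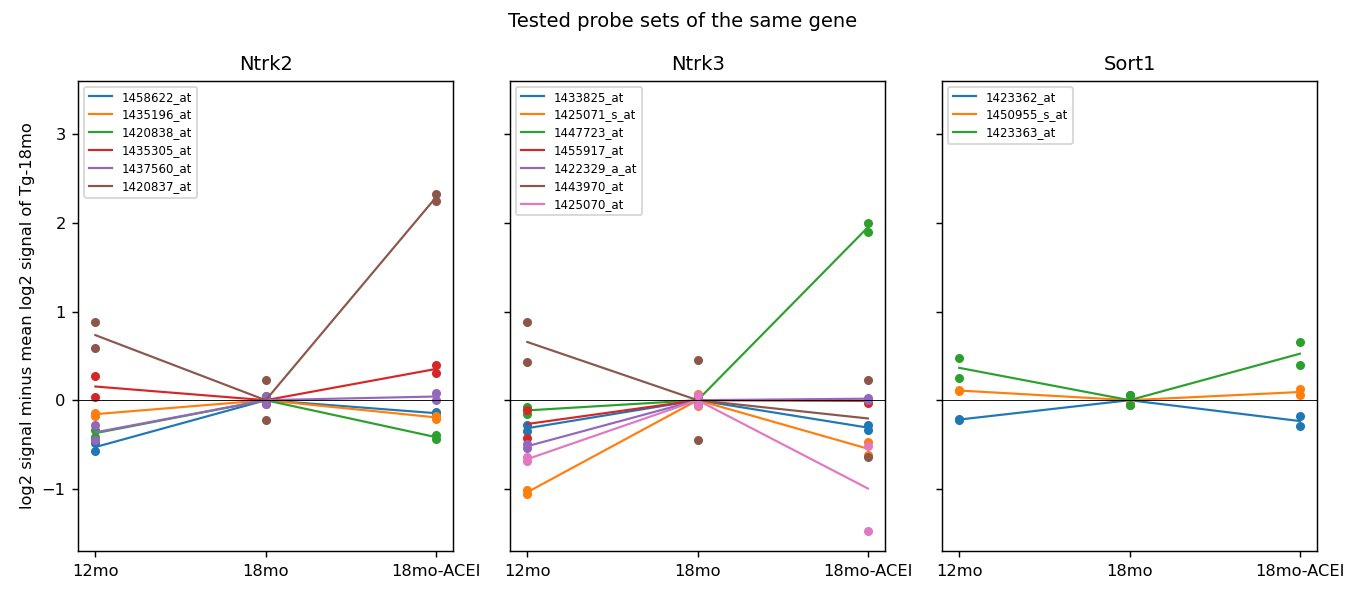
Log2 signal minus the mean log2 signal of Tg-18mo for each tested probe set of Ntrk2, Ntrk3 and Sort1 (y axis), with 1 point per chip and lines that join group means of Tg-12mo, Tg-18mo and Tg-18mo-ACEI. Ntrk2 1420837_at and Ntrk3 1447723_at lie 2.29 and 1.95 above Tg-18mo with captopril, whereas Ntrk2 1420838_at and Ntrk3 1425071_s_at lie 0.42 and 0.55 under it.

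Ntrk3 lies at chr7:78179986-78581034 (GRCm38.p6), and 7 of its 8 probe sets were tested. With captopril, 2 were lower (1433825_at and 1425071_s_at), 1 was higher (1447723_at) and 4 did not pass. The shares over all probe sets tested were 17.7% lower and 15.9% higher. On 1433825_at, which had the highest mean, the signals were 1706 and 1789 at 12 months, 2183 and 2167 at 18 months, and 1793 and 1717 with captopril. Treated 18 month-old and untreated 12 month-old mice overlapped here, under untreated 18 month-old mice. The captopril difference was -0.31 ± 0.054 (1.24-fold lower, limma adjusted p = 0.0033) and the age difference 0.32 ± 0.054 (limma adjusted p = 0.0017). On 1425071_s_at the signals were 328 and 338, 718 and 652, and 444 and 493 in the same order. No 2 groups overlapped, and captopril-treated mice lay between. The age difference was 1.04 ± 0.099 (2.05-fold, limma adjusted p = 8.3e-05) and the captopril difference -0.55 ± 0.099 (1.46-fold lower, limma adjusted p = 0.0039).

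The probe set 1447723_at, which carries the symbol Ntrk3 in the annotation used here, went the other way. Its signals were 193 and 203 at 12 months, 208 and 222 at 18 months, and 802 and 860 with captopril. Only the captopril group stood apart, 3.87-fold above Tg-18mo, a log2 difference of 1.95 ± 0.11 (limma adjusted p = 8.9e-06) and the lowest adjusted p of any member with captopril. It was 4.19-fold above Tg-12mo (limma adjusted p = 1.2e-05). The differences of 1433825_at, 1425071_s_at and 1447723_at named here passed without each chip in turn.

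The dimmer Ntrk3 probe sets that were tested did not pass with captopril. On 1422329_a_at the signals were 183 and 189 at 12 months, 261 and 272 at 18 months, and 272 and 267 with captopril. The age difference was 0.52 ± 0.13 (limma adjusted p = 0.01; 0.065 without Tg-18mo replicate 2), and the captopril difference 0.02 with a 95% interval of -0.27 to 0.31. On 1455917_at the signals were 243 and 303, 337 and 316, and 321 and 329, and no comparison passed. On 1425070_at, annotated to the same transcript as 1425071_s_at, the signals were 81.7 and 79.1 at 12 months, 133 and 122 at 18 months, and 88.8 and 45.9 with captopril. Its captopril difference of -0.996 ± 0.34 did not pass (limma adjusted p = 0.051). On 1443970_at the chips of a group differed as much as the groups, with 118 and 161, 119 and 64.0, and 103 and 55.9. These last 2 reached a mean of 100 in 1 group each, Tg-18mo and Tg-12mo. The untested 1426003_at had signals of 4.5 to 46.5.

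Ngfr encodes p75, the receptor that binds all neurotrophins and, with sortilin, their precursors. It lies at chr11:95568818-95587698 (GRCm38.p6). Only 1454903_at was tested, and the other 2 probe sets, 1450177_at and 1421241_at, had signals of 2.5 to 9.1. On 1454903_at the signals were 54.4 and 118 at 12 months, 205 and 241 at 18 months, and 122 and 109 with captopril. Untreated 18 month-old mice lay above both other groups, which overlapped with each other. The age difference was 1.47 ± 0.34 (2.78-fold, limma adjusted p = 0.0073). It was lost without Tg-18mo replicate 2 (limma adjusted p = 0.051), and with the 12 month mean under 100 it ranged widely, at 0.92 without Tg-12mo replicate 1 and 2.03 without Tg-12mo replicate 2. With captopril the difference was -0.95 ± 0.34 with a 95% interval of -1.72 to -0.17, and it did not pass over all probe sets (limma adjusted p = 0.061).

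Markers of vascular smooth muscle cells and pericytes, like Ngfr, were mostly highest in untreated 18 month-old mice. Their summed signal was 4611 to 5312 at 12 months, 7988 to 8577 at 18 months and 5760 to 5983 with captopril, and 4 of 6 were higher at 18 than at 12 months and 4 of 6 lower with captopril (3 after division of each chip by its median). In the order 12 months, 18 months and captopril, Rgs5, which gave most of the sum, averaged 1939, 4468 and 3655, Acta2 1247, 2030 and 908, Tagln 183, 394 and 179, Cspg4 225, 286 and 205, and Myh11 61.7, 115 and 73.2. Pdgfrb averaged 1306, 990 and 851 and was thus highest at 12 months. Myh11 passed the filter only through Tg-18mo, in which it is highest, so its call with age, counted above, is a description. Against Tg-12mo, captopril-treated mice were higher in 1 of the 6 and lower in 2, with a median of -0.07. Markers of meninges and fibroblasts (4 of 6 lower) and of the choroid plexus (6 of 7 lower) also fell with captopril, with medians of -0.90 and -2.57. Their summed signals were 3697 to 3777 against 6795 to 6858, and 20016 to 21987 against 25573 to 27992. Of the choroid plexus markers, Folr1 averaged 1288 in Tg-18mo and 239 with captopril. Ttr, which gave most of the choroid plexus sum, averaged 18677 and 19364 and did not pass (limma adjusted p = 0.59). Basal forebrain cholinergic neurons express p75, and of their 5 markers only Isl1 was tested. Isl1 was lower with captopril, at a mean of 95.9 against 209 in Tg-18mo (-1.13, limma adjusted p = 0.0029) and 194 in Tg-12mo. Slc18a3, Lhx8, Slc5a7 and Chat lay below the filter in every group and were not tested, so their low means are only a description. In the order 12 months, 18 months and captopril, Slc18a3 averaged 40.3, 59.8 and 26.1 and Lhx8 53.6, 78.7 and 17.2. Slc5a7 averaged 26.2, 11.3 and 3.66 and was thus highest at 12 months. Its Tg-18mo chips (18.3 and 4.22) overlapped with its captopril chips (5.19 and 2.13). Chat averaged 43.0 to 45.4 in the 3 groups. The part of these cells in the Ngfr differences was not tested.

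Sort1 encodes sortilin, a sorting receptor that carries BDNF in neurons and binds proneurotrophins with p75. It lies at chr3:108283974-108361519 (GRCm38.p6), and its 3 probe sets, all annotated to the same transcript, were tested. On 1423362_at the signals were 6169 and 6152 at 12 months, 6883 and 7466 at 18 months, and 6323 and 5864 with captopril. On 1423363_at they were 463 and 395, 345 and 319, and 436 and 523 in the same order. The order of groups was opposite on the 2 probe sets. Untreated 18 month-old mice were highest on the former and lowest on the latter. With captopril, 1423362_at differed by -0.24 ± 0.057 on the log2 scale (limma adjusted p = 0.014) and 1423363_at by 0.52 ± 0.13 (limma adjusted p = 0.015). Both captopril differences were lost without Tg-18mo replicate 2 (0.1 and 0.087) and without Tg-18mo-ACEI replicate 2 (0.097 and 0.11). The age differences were 0.22 (limma adjusted p = 0.013) and -0.36 (limma adjusted p = 0.045). The former was lost without Tg-18mo replicate 2 (0.097), Tg-12mo replicate 1 (0.051) or Tg-12mo replicate 2 (0.054), and the latter without Tg-18mo replicate 1 (0.083), Tg-18mo replicate 2 (0.18) or Tg-12mo replicate 1 (0.19), and with the replicate block (0.059). On 1450955_s_at the signals of 657 to 724 gave no difference that passed.

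Vgf lies at chr5:137025301-137033351 (GRCm38.p6) and was read by 1436094_at. The signals were 2750 and 2853 at 12 months, 4027 and 3751 at 18 months, and 3427 and 3322 with captopril. No 2 groups overlapped, and captopril-treated mice lay between. Vgf was 0.47 ± 0.053 higher in Tg-18mo than in Tg-12mo (1.39-fold, limma adjusted p = 0.00019), and 0.27 ± 0.053 higher in Tg-18mo-ACEI than in Tg-12mo (limma adjusted p = 0.0045). The captopril difference was -0.20 ± 0.053 (1.15-fold lower, limma adjusted p = 0.02). It was lost without Tg-18mo replicate 1 (0.13), Tg-18mo-ACEI replicate 1 (0.052) or Tg-18mo-ACEI replicate 2 (0.11), and after division of each chip by its median (0.076).

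**Figure D3:**
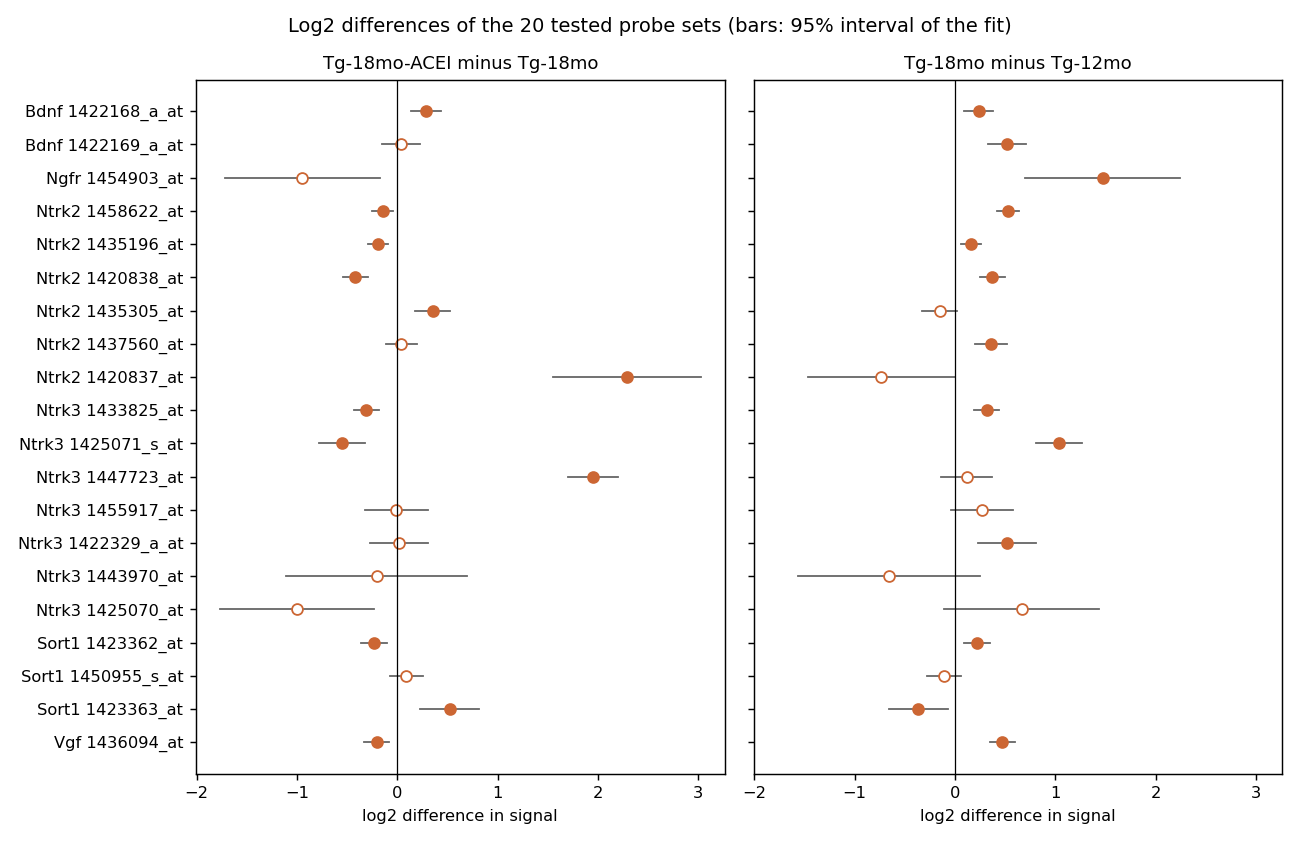
Log2 difference in signal (x axis) of the 20 tested probe sets with captopril (left, Tg-18mo-ACEI minus Tg-18mo) and with age (right, Tg-18mo minus Tg-12mo). Points are fitted differences, bars are 95% intervals of the limma fit and filled points passed at an adjusted p under 0.05. With captopril 5 filled points lie right of 0 and 7 left of it, and with age 12 lie right and 1 left.

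Over the members as a whole, 5 of 20 tested probe sets were higher and 7 lower with captopril, where 15.9% and 17.7% of all probe sets tested were called higher and lower. The members' median difference was -0.08, against -0.04 over all probe sets. With 32 added to each signal 9 were lower, and with only the 2 groups compared 8. Without Tg-18mo-ACEI replicate 2 the counts were 3 and 3, without Tg-18mo replicate 2 they were 3 and 4, without Tg-18mo replicate 1 they were 4 and 4, and without the intensity trend 3 were lower. The study's thresholds were taken here as an unadjusted limma p of 0.01 or less and a 2-fold difference. By these, Ntrk2 1420837_at and Ntrk3 1447723_at were higher (2 members, 3.03% of all probe sets) and none was lower (1.06%). The former of these passed the filter only through the captopril group. In Tg-18mo against Tg-12mo, 12 members were higher and 1 lower, with 25.9% and 21.5% over all probe sets and medians of 0.29 and 0.05. Without Tg-18mo replicate 2 the 12 became 7. The 1 lower member, Sort1 1423363_at, was not called without either Tg-18mo chip. Ngfr 1454903_at and Ntrk3 1425071_s_at passed the study's thresholds as higher (2.57% of all) and none as lower (1.78%). As 3 of the 20 tested members passed the filter through a single group, the counts describe the tested probe sets and not all 25.

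Captopril-treated mice were also set against 12 month-old mice, which share neither age nor treatment with them. Of the 20 tested members, 9 were higher and none was lower, whereas 22.3% and 17.7% of all probe sets were called higher and lower. In limma no member was lower at an unadjusted p under 0.05 either. The medians were 0.26 and 0.05. The 9 were both Bdnf probe sets, Ntrk2 1458622_at, 1437560_at and 1420837_at, Ntrk3 1425071_s_at, 1447723_at and 1422329_a_at, and Vgf. Ntrk2 1420837_at was lost without Tg-18mo-ACEI replicate 1 (limma adjusted p = 0.051), and Ntrk3 1422329_a_at without either Tg-18mo-ACEI chip (0.062 and 0.054). By the study's thresholds, Ntrk2 1420837_at and Ntrk3 1447723_at were higher (2.05% of all) and none lower (1.24%). Here too, 1420837_at passed the filter only through the captopril group, in which it is high. This comparison shares its captopril chips with the first and its 12 month chips with the second, so it is no independent test of either.

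The genes whose pattern over the 6 chips was most like that of a member were named by the smallest root mean square difference of centred log2 signals, among 20080 probe sets. For Bdnf 1422168_a_at these were Hdac2, Capn7 and Vcpip1, with differences of 0.023 to 0.030. Trio, Sptb and Ddx17 were closest to Ntrk2 1458622_at (0.020 to 0.023), and Dlgap4, Cuta and Rtkn to Ntrk3 1433825_at (0.017 to 0.020). For Sort1 1423362_at they were Slc41a3, Rasd2 and Dync1h1 (0.016 to 0.024), and for Vgf Alg10b, Ccdc127 and Soga3 (0.015 to 0.020). For Ngfr 1454903_at they were Stra6, Cacng8 and Cacna1b (0.13 to 0.16). This measure grows with a probe set's own spread over the chips, so its size cannot be compared between members. The Pearson correlation over the 6 chips was 0.983 to 0.992 for the Ngfr matches and 0.979 to 0.996 for those of Sort1.

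Other genes of the pathway were followed in 5 lists, with each gene read by the probe set of its highest mean signal. Of 92 genes listed, 71 were tested. With captopril 9 were higher and 17 lower, in Tg-18mo against Tg-12mo 29 were higher and 19 lower, and in Tg-18mo-ACEI against Tg-12mo 17 were higher and 18 lower. The shares over all probe sets tested were 15.9% and 17.7%, 25.9% and 21.5%, and 22.3% and 17.7%. Among the pathway genes the medians were -0.10, 0.06 and 0.01, against -0.04, 0.05 and 0.05 over all probe sets tested.

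Among the other ligands and receptors, 7 of 10 were tested. Neurotrophin-4 (Ntf5) had means of only 51 or less in every group and was not tested. The sortilin relatives Sorl1, Sorcs2 and Sorcs3 were higher in Tg-18mo than in Tg-12mo, by 0.42, 0.59 and 0.51 (limma adjusted p = 0.00036, 0.00052 and 0.00023). Sorcs1 was lower (-0.44; limma adjusted p = 0.037), a call that was lost without any 1 of the 4 untreated chips (0.086 to 0.13). Lingo1, a co-receptor of p75, was higher by 0.31 (limma adjusted p = 0.0023). Against Tg-12mo, captopril-treated mice had higher Sorl1, Sorcs2 and Sorcs3 (0.29, 0.37 and 0.29) and lower Sorcs1 (-0.87, limma adjusted p = 0.0032, 0.0074, 0.005 and 0.002). The Sorcs2 call was lost without Tg-18mo-ACEI replicate 1 (0.06) and after quantile normalization (0.24, limma adjusted p = 0.057), and Sorcs3 was 0.19 after quantile normalization and still called. With captopril, Sorcs3 and Lingo1 were lower (-0.22 and -0.21) and the receptors Tnfrsf19 and Rtn4r higher (0.31 and 0.20; limma adjusted p = 0.024, 0.021, 0.021 and 0.045). Each of these 4 captopril calls was lost without at least 3 of the 4 chips of 18 month-old mice, with adjusted p of 0.065 to 0.22 (Lingo1 held without Tg-18mo-ACEI replicate 1 and Tnfrsf19 without Tg-18mo replicate 2). Rtn4r was also lost with the replicate block (0.066), and Sorcs3 and Lingo1 after division of each chip by its median (0.076 and 0.061).

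The adaptors and kinases that carry Trk signals were mostly tested, 27 of 36. In Tg-18mo against Tg-12mo 14 were higher and 3 lower, and 9 and 2 after quantile normalization, beside 25.9% and 21.5% of all probe sets as deposited. The largest called differences were those of the adaptors Shc1, Shc2 and Frs3, of 0.94, 0.63 and 0.57 (limma adjusted p = 0.0093, 0.049 and 0.0042). Shc1 was lost without Tg-18mo replicate 2 (0.085), and Shc2 without any chip except Tg-12mo replicate 1 (0.072 to 0.26), with the replicate block (0.067), with no filter (0.095), after quantile normalization (0.06) or division by the median (0.05), and with only the 2 groups compared (0.068). With captopril 3 were higher and 4 lower. Crkl, an adaptor of the Rap1 branch, was higher by 0.62 (limma adjusted p = 0.00015), from a mean of 1273 to 1956. Map2k5 and Sh2b1 were lower (-0.34 and -0.33; limma adjusted p = 0.0044 and 0.013), the latter lost without Tg-18mo replicate 2 (0.1) or Tg-18mo-ACEI replicate 1 (0.086). Against Tg-12mo, captopril-treated mice had higher signals of the Ras activator Sos1 (0.53) and the kinase Rps6ka3 (0.49; limma adjusted p = 0.00033 and 0.0046). Shc1 was also higher (0.65, limma adjusted p = 0.048), a call lost in 8 alternatives, among them leaving out Tg-18mo replicate 2, Tg-12mo replicate 1 or either Tg-18mo-ACEI chip (0.052 to 0.19).

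Of the p75 adaptors 8 of 11 were tested. With captopril 2 were lower, Zfp369 (-0.42; limma adjusted p = 0.0032) and Maged1 (-0.23; 0.0094), and none was higher in limma, also at an unadjusted p under 0.05. Maged1 was lost without Tg-18mo replicate 2 or Tg-18mo-ACEI replicate 2 (0.06 in both). In Tg-18mo against Tg-12mo, Zfp369 and Prdm4 were higher (0.61 and 0.46) and Bex1 lower (-0.71; limma adjusted p = 0.00026, 0.00087 and 1.7e-05). The Bex1 difference was -0.27 after quantile normalization. In captopril-treated mice Bex1 (-0.65) and Bex3 (-0.32) were lower and Prdm4 higher than in Tg-12mo (0.40, limma adjusted p = 3e-05, 0.003 and 0.0025). After quantile normalization Bex1 and Bex3 were no longer called (-0.12 and -0.13, limma adjusted p = 0.13 and 0.067).

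Enzymes and granule proteins that process, sort and store neurotrophins were tested for 17 of 23 genes. With captopril 1 was higher and 4 lower. Chromogranin A (Chga) fell by 0.83, from a mean of 2988 to 1683, Hap1, which binds proBDNF together with sortilin, by 0.58, and Scg5 by 0.27 (limma adjusted p = 0.00016, 0.00065 and 0.0028). In Tg-18mo against Tg-12mo 5 were higher and 7 lower, and 6 and 5 after quantile normalization. Gripap1 was higher by 0.96 (limma adjusted p = 0.0063; 0.58 without Tg-18mo replicate 2). Carboxypeptidase E (Cpe), which sorts proBDNF into granules, and Scg5 were lower (-0.71 and -0.59; limma adjusted p = 1.7e-05 and 3.3e-05). After quantile normalization these were -0.04 (limma adjusted p = 0.38) and -0.18, and of these only Scg5 was still called. Scg5, Cpe and Scg3 were lower in captopril-treated mice than in Tg-12mo (-0.86, -0.78 and -0.37, limma adjusted p = 1.2e-05, 1.8e-05 and 0.00062). After quantile normalization these were -0.42, -0.05 and -0.10, and the last 2 were no longer called (limma adjusted p = 0.35 and 0.088).

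Genes known to respond to BDNF were tested for all 12 listed. With captopril 3 were higher and 5 lower. The immediate early genes went both ways. Arc and Fos fell by 0.70 and 0.61, Nr4a1 by 0.48 and Egr1 by 0.19 (limma adjusted p = 8.8e-05, 0.00031, 0.00034 and 0.028). Egr3 was higher by 0.45 and Homer1 by 0.19 (limma adjusted p = 0.0021 and 0.024), and Egr2 did not pass (0.095). Spry2, an inhibitor of receptor tyrosine kinase signalling, was higher by 0.64 (limma adjusted p = 0.00014). In Tg-18mo against Tg-12mo 4 were higher and 6 lower, with Arc higher by 0.71, neuropeptide Y (Npy) higher by 0.50 and Spry2 lower (-0.65; limma adjusted p = 4.9e-05, 0.00016 and 7.4e-05). For Arc, the means were 1344 at 12 months, 2206 at 18 months and 1359 with captopril, and for Spry2 they were 1641, 1048 and 1632. These 2 comparisons share the Tg-18mo chips, so opposite values in them are not independent. Against Tg-12mo, captopril-treated mice had lower Fos (-0.73) and Nr4a1 (-0.63) and higher Dusp6 (0.44; limma adjusted p = 9.3e-05, 6e-05 and 0.00072).

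**Figure D4:**
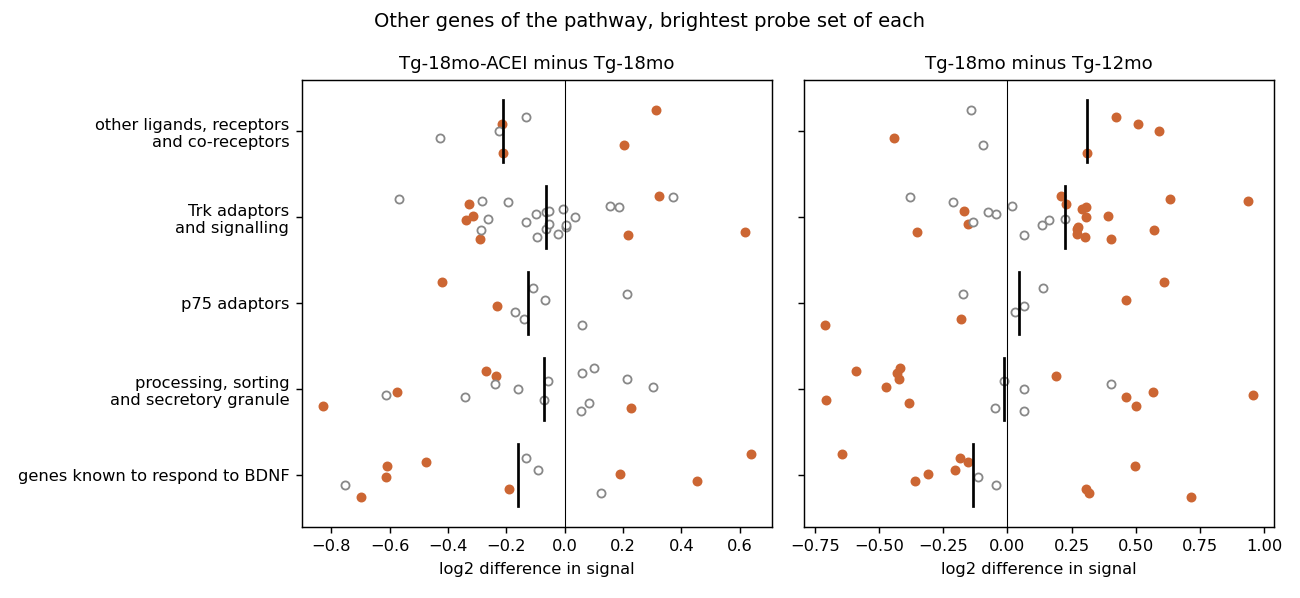
Log2 difference in signal (x axis) of the tested genes of the 5 pathway lists with captopril (left, Tg-18mo-ACEI minus Tg-18mo) and with age (right, Tg-18mo minus Tg-12mo), with 1 point per gene, filled where it passed at an adjusted p under 0.05, and a vertical bar at the list's median. Vertical scatter within a list only separates the points. The adaptors and kinases of Trk signalling have a median of 0.22 with age and -0.06 with captopril.

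Markers of neurons in general ran against the members between the ages. Of 5 tested, 4 were lower and none higher in Tg-18mo than in Tg-12mo, with summed signals of 62308 to 65897 against 87719 to 88476. After quantile normalization 2 were higher and 1 lower, so this direction depended on the scaling, whereas the members' counts were 12 higher and 1 lower as deposited and 11 and 2 after quantile normalization. The part of neuron number in the members' signals was not tested.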

How the data were processed

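Signals of 6 Affymetrix MG430 2.0 chips were analysed, 2 for each of 3 groups of Tg2576 mice, with the RNA of 4 mice pooled per chip. Groups and replicate numbers follow the labels, which call the 2 chips of a group biological replicates. The authors deposited 1 linear signal intensity per probe set and chip, made with Affymetrix GCOS software and scaled to a target value of 600. On each chip the mean after trimming 2% at each end was 600. Detection calls and the RMA values named in the study's methods were not used here. The number of chips, and no count depth, limits the precision.

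Members were the probe sets with a single matching symbol in the array annotation, in which 34945 probe sets have 1 symbol, 932 several and 9160 none. The members, gene lists and tests were chosen with earlier results of these data known. Control probe sets (64) and probe sets with a mean signal under 100 in every group were left out. limma 3.58.1 in R 4.3.3 estimated the 3 group means from the log2 signals of all 6 chips together (lmFit, then eBayes with trend), with 3 residual and 5.37 prior degrees of freedom and Benjamini-Hochberg adjustment over 23262 probe sets. The fit was tested on simulated data with known changes. The text names every member probe set, the pathway genes of the ligand and receptor list, per comparison up to 3 genes with the largest called difference of each other list, and per member the 3 genes most like it. Egr3 was named besides, because with captopril it went against Arc and Fos. For captopril, Nr4a1, Egr1, Egr2 and Homer1 were named with it, to show both directions. Marker genes were named after their values were seen.

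As alternatives, 32 was added to signals, the filter was dropped or set at a mean of at least 200 over the chips, signals were quantile normalized or divided by the chip median, the fit was limited to the 2 groups compared, given a replicate block or run without trend, pathway genes were read by the mean of their probe sets, and 1 chip at a time was left out. The methods' t-test (log2 and linear signals) and the study's thresholds were also applied. Promoters were read from RefSeq windows (GRCm38.p6). Tables and figures used Python 3.11.15, pandas 2.3.3 and matplotlib 3.10.9.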

Additional observations from a re-analysis of the deposited data

How the results depend on the processing

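Of 60 member differences tested, 34 were called, and none of the 34 changed sign under any alternative. Of these, 34 were still called with 32 added or with only the 2 groups compared, 33 after quantile normalization, 32 with no filter and with the replicate block, 31 with a mean of at least 200 or each chip divided by its median, 26 without the intensity trend, and none by the methods' t-test after adjustment, on log2 or on linear signals. At an unadjusted p under 0.05 the methods' t-test passed 10, 11 and 8 members on log2 signals and 10, 11 and 9 on linear ones, in the order captopril, age, captopril against 12 months, and 2, 1 and 2 at 0.01 and 2-fold. It also gave 0 pathway genes after adjustment, except with age, where 4 were higher on both scales and 2 (log2) or 3 (linear) lower. By the study's thresholds, 2 members were higher and 0 lower in each comparison, and 0 pathway genes passed. Members lower with captopril were 7 in the main fit, 9 with 32 added, 8 with only the 2 groups compared and 3 without the trend. Pathway genes higher with captopril were 5 without the trend. Members lower with age were 0 with no filter, 2 after quantile normalization and 0 with the replicate block. Pathway genes of Tg-18mo-ACEI against Tg-12mo were 19 higher and 12 lower after quantile normalization, against 17 and 18.

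With each chip left out in turn, members higher and lower with captopril ranged from 3 to 5 and 3 to 8, those with age from 7 to 12 and 0 to 1, and those of Tg-18mo-ACEI against Tg-12mo from 7 to 12 and 0 to 0. Pathway genes higher with captopril ranged from 5 to 10 and lower from 11 to 19, with age from 22 to 28 higher and from 13 to 18 lower, and against Tg-12mo from 10 to 18 and from 14 to 18. A lone chip was then assumed to vary like the other groups. The lowest counts came without Tg-18mo replicate 2 (7 members higher with age, 11 pathway genes lower with captopril), Tg-18mo-ACEI replicate 2 (3 members lower with captopril) and Tg-18mo-ACEI replicate 1 (5 and 10 pathway genes higher). Of the 34, 19 were called in every such fit.

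Member differences that reversed under an alternative were all uncalled. After quantile normalization, Tg-18mo-ACEI against Tg-12mo was -0.071 for Ntrk3 1433825_at and 0.12 for Sort1 1423362_at, and captopril was 0.0047 for Ntrk3 1455917_at (0.023 after division by the median). With 1 chip left out, captopril differences ranged from -0.0027 to 0.074 (Bdnf 1422169_a_at), -0.0045 to 0.088 (Ntrk2 1437560_at), -0.055 to 0.040 (Ntrk3 1455917_at), -0.011 to 0.045 (Ntrk3 1422329_a_at) and -0.65 to 0.24 (Ntrk3 1443970_at). Those against Tg-12mo ranged from -0.031 to 1.08 (Ngfr 1454903_at), -0.028 to 0.041 (Ntrk3 1433825_at), -0.81 to 0.14 (Ntrk3 1425070_at), -0.071 to 0.038 (Sort1 1423362_at) and -0.052 to 0.018 (Sort1 1450955_s_at). Causes were not tested.

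The replicate numbers did not pair the chips: deviations from group means correlated at -0.03, 0.03 and -0.05 between groups. With the replicate block 32 of 34 calls held, the lost ones being Ntrk2 1458622_at with captopril (limma adjusted p = 0.075) and Sort1 1423363_at with age (0.059). Of 48 differences named for pathway genes, 32 were called under every alternative fit that kept their probe set. This count left out the t-tests, the study's thresholds and the mean of a gene's probe sets. It also left out Egr1, Egr2, Egr3, Homer1 and, with captopril, Nr4a1.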
